A study of Mus musculus with 8 samples.

Results

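Early differentiating granule neurons of Sonic hedgehog medulloblastoma were cells chosen by their measured UMIs, with at least 1 UMI (a unique molecular identifier, counting 1 captured mRNA) of each of Cntn2 and Nhlh1 and with few markers of later neurons or of dividing cells. At most 1 of 7 late markers (Neurod2, Grin2b, Rbfox3, Snap25, Gap43, Syt1 and Gng3) could be detected. At most 2 of 10 cycling markers (Top2a, Ube2c, Cdk1, Ccnb1, Hmmr, Tpx2, Plk1, Aurkb, Nusap1 and Prc1) could be detected. Cells also needed at least 500 genes and at most 10% mitochondrial UMIs. The rule found 149 of 16933 passing cells, 23 of 7839 in a relapsed tumour taken at 3 weeks and 126 of 9094 in a primary tumour. Both droplet libraries were medulloblastoma cells, papain-dissociated and flow-sorted, from mice with the genotype Patched 1 deficient, so the loss of this Hedgehog receptor is shared by both groups and no wild-type cells were compared. The driver of the deletion, the number of animals and the treatment between primary and relapsed tumour are not given in the labels. For the relapsed library, the description reads primary; its title and its source characteristic read relapsed and were followed. The series also holds 6 libraries of sorted astrocytes, which were not used here. Each group was 1 library, so no difference below has a replicate check or a test, and cells are not replicates.

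Granule neurons of the cerebellum arise from Atoh1-expressing precursors that divide under Sonic hedgehog. When a precursor leaves the cell cycle it switches on Cntn2, a contactin-type adhesion molecule also called TAG-1, and Nhlh1, a basic helix-loop-helix transcription factor, and starts to extend parallel fibres and migrate. Late markers such as Rbfox3 (NeuN), Snap25 and the glutamate receptor subunit Grin2b follow as the neuron matures. In tumours that lack Patched 1, the precursor-like cells keep dividing, and some still enter this path.

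Both defining genes lie on mouse chromosome 1 (mm10), Nhlh1 at 172052292 to 172057573 and Cntn2 at 132509427 to 132543256, each on the minus strand and protein coding. Upstream sequence is shown for Nhlh1, which chose the cells, and for its close relative Nhlh2, which the rule did not use and which was also higher in the members. The stretches run from 250 to 71 bases before the RefSeq start (GRCm38.p6), chr1:172057667-172057846 on the minus strand for Nhlh1 and chr3:102009895-102010074 on the plus strand for Nhlh2. Each is written 5′ to 3′, and capitals mark CAGATG, an E-box, the kind of motif that basic helix-loop-helix factors bind.
Nhlh1: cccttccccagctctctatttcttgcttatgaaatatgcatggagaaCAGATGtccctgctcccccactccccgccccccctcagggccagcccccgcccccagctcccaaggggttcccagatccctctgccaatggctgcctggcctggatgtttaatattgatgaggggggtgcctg
Nhlh2: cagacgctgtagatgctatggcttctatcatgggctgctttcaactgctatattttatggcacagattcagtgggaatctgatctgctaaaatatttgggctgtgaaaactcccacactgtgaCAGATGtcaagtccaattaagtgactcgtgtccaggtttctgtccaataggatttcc
CAGATG was searched on both strands (also as CATCTG) over the 250 bases before the start, with CAGCTG, which reads the same on both strands. Nhlh1 held 1 CAGATG, 203 bases before the start, and Nhlh2 held 1, 127 bases before it. The same windows of Cntn2 and of Tubb3, a neuronal tubulin described below, held neither motif, and no window of the 4 genes held CAGCTG. The Cntn2 window (chr1:132542941-132543190) lies inside the gene span given above. The Tubb3 window (chr8:123411303-123411552) runs past that gene's GENCODE start at 123411424. The Nhlh2 stretch shown ends before that gene's GENCODE start at 102010076, but the rest of its 250-base window runs past that start. For Cntn2, Tubb3 and Nhlh2 the window is thus not only sequence upstream of the annotated gene. Of 32851 promoters of this length, 14.4% held CAGATG and 13.0% held CAGCTG. A match is a description of the letters and not a binding site.

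The members rested on very few UMIs of the genes that chose them. Cntn2 had 1 UMI in 21 of 23 relapsed members and in 79 of 126 primary members, and no member had more than 5. Nhlh1 had 1 UMI in 14 of 23 relapsed members and in 72 of 126 primary members. Most members carried the single late marker that the rule allows, 19 of 23 relapsed and 113 of 126 primary. That marker was Gap43, a growth cone protein, in 4 relapsed members and 79 primary members, and Gng3, a G protein subunit, in 7 relapsed members and 9 primary members. No cycling marker was detected in 12 relapsed and 66 primary members. Atoh1, the precursor factor, had a UMI in 16 of 23 relapsed members (69.6%) and in 39 of 126 primary members (31.0%). Over all passing cells, it had a UMI in 65.3% of relapsed and 44.4% of primary cells. Just outside the rule, 73 relapsed and 255 primary cells had both genes and 2 late markers, and 0 relapsed and 3 primary cells had 3 cycling markers.

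Members made up 0.293% of passing relapsed cells (exact Clopper-Pearson 95% interval 0.186 to 0.440) and 1.39% of passing primary cells (1.16 to 1.65). The late-marker limit removed most cells: both genes were detected in 876 relapsed cells (11.2%) and 1559 primary cells (17.1%), of which 28 and 149 had at most 1 late marker. Cells were deeper in the relapsed library, with a median of 7230 UMIs against 5431 UMIs in the primary library, and a deeper cell can show more late markers. After each cell was thinned to 3000 UMIs, 36 of 7839 relapsed cells (0.459%, 0.322 to 0.635) and 146 of 7918 primary cells (1.84%, 1.56 to 2.16) met the rule, with 0 and 1176 shallower cells left out. Of these, 11 relapsed and 64 primary cells were also members without thinning, so which cells qualify changed with depth. Intervals here and below cover counting error only and not the spread between tumours. Those of summed UMIs also leave out the spread between cells.

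Both genes also had UMIs in cells that should lack them. Of 32 relapsed cells with at least 3 of 6 microglia and macrophage genes (C1qa, C1qb, C1qc, Csf1r, Cx3cr1 and Tyrobp), with a median of 11333.5 UMIs, 1 had a Cntn2 UMI, 1 had a Nhlh1 UMI and 0 met the rule. A count of 0 allows a share of up to 9.375%, taken as 3 counts of the total (exact upper bound 10.9%). Of 272 primary cells of this kind, with a median of 6480 UMIs, 18.75% had a Cntn2 UMI, 15.8% had a Nhlh1 UMI and 3 met the whole rule (1.10%, 0.228 to 3.19). The interval of this background share contains the 1.39% of all primary cells that met the rule. On 3 cells, these counts do not tell the primary share from background. Thinned, 0 of 32 relapsed and 0 of 227 primary cells of this kind met the rule, with limits of 9.375% and 1.32% on the same 3 counts. Over all thinned cells the shares were 0.459% (0.322 to 0.635) in the relapsed and 1.84% (1.56 to 2.16) in the primary library. Summed Tubb3 was 70.0 CPM (UMIs scaled to an equal total per group of cells) in the relapsed microglia and macrophage cells and 319 CPM in the primary ones, against 1576 and 2187 CPM in the members.

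The label was checked against granule-lineage markers that the rule did not use. At least 3 of Zic1, Zic2, Pax6, Neurod1, Barhl1, Meis1 and Etv1 were detected in 23 of 23 relapsed members and in 111 of 126 primary members. So they were in 73.7% and 69.0% of precursor cells and 91.5% and 89.9% of late cells, both defined below. This list therefore bears on lineage and not on stage. Precursor markers (Atoh1, Gli1, Gli2, Ptch1, Mycn, Sfrp1 and Barhl1) summed to 2750 CPM in relapsed and 1853 CPM in primary members. Precursor cells, chosen by Atoh1, had 2901 and 2374 CPM, and late cells 2236 and 1731 CPM. Relapsed members thus lay near precursor cells on this sum, but single genes differed. Atoh1 was 250 CPM in relapsed members, against 469 CPM in precursor and 203 CPM in late cells. Ptch1 was 121 CPM, against 169 and 106 CPM, and Mycn 364 CPM, against 310 and 266 CPM. The sum therefore does not place the stage of the members. Endothelial markers summed to 0 and 2 UMIs over all relapsed and primary members, and markers of unipolar brush cells, the other glutamatergic interneuron of the cerebellar cortex, to 0 and 4 UMIs. Markers of GABAergic cerebellar neurons, 10 in all, summed to 364 CPM in relapsed and 298 CPM in primary members, against 228 and 175 CPM in precursor cells, most of it the homeodomain gene Lhx1 (41 and 138 UMIs). Of that list, Pax2, Gad2 and Slc32a1 were at 0 in both libraries and Gad1 had 1 and 0 UMIs. Markers of glutamatergic cerebellar nuclei, 5 in all, summed to 197 and 153 CPM, against 73.2 and 99.6 CPM in precursor cells, with Tbr1 and Lhx9 at 0 in members. The part of these lists in the results was not tested. Microglia and macrophage markers, 9 in all, were at 0 in every relapsed member and summed to 88.6 CPM in primary members, with Csf1r at 0. Astrocyte markers, 8 in all, summed to 1659 CPM in relapsed members and 320 CPM in primary members. Of the relapsed astrocyte UMIs, 15 of 219 remained when 1 cell was left out. That cell had 14370 UMIs, 10.9% of all relapsed member UMIs, all 8 astrocyte markers, 1320 UMIs of the metallothionein gene Mt1, 273 of Mt3 and 85 of the glutamate transporter gene Slc1a3. Among primary members, 6 cells had at least 3 astrocyte or 3 microglia and macrophage markers. These 7 glial-marked cells met the rule and stay in the main values, and the counts over all genes are also given without them, for 22 relapsed and 120 primary members.

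**Figure D1:**
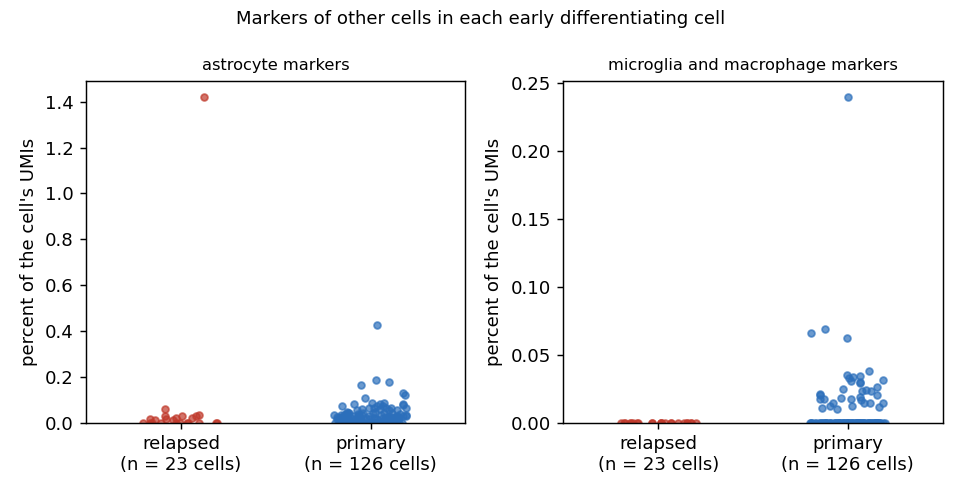
Share of each member's UMIs in 8 astrocyte markers (left) and 9 microglia and macrophage markers (right), 1 point per cell, with percent of the cell's UMIs on the vertical axis. 1 relapsed cell stands at 1.42% astrocyte markers, the other relapsed members are at or below 0.06%, and microglia and macrophage markers are at 0 in all 23 relapsed members.

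The members were set against Atoh1 precursor cells of the same library, which had an Atoh1 UMI, no Cntn2 or Nhlh1 UMI and the same limits on late and cycling markers (445 relapsed and 520 primary cells). Tubb3, Stmn2, Nhlh2 and Neurod1 were at least 2-fold higher in members in both libraries, and Pcna and Ccnd1 at least 2-fold lower. A gene was called at least 2-fold different when it passed a log2 ratio of 1 the same way in both libraries. Of 8213 genes with at least 50 summed UMIs, 238 passed (2.9%), 146 higher (1.78%) and 92 lower (1.12%) in members. Of 2319 genes with at least 10 UMIs in the members of each library, observed or expected from the precursor level, 75 passed (3.23%), 56 higher (2.41%) and 19 lower (0.819%). The higher genes include Cntn2 and Nhlh1, which the rule fixes. The counts of genes below come from this smaller set. Their medians over all 2319 genes were log2 0.07 in the relapsed and 0.04 in the primary library.

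Among the proneural and neurogenic factors, 2 of 11 were at least 2-fold higher in members and 0 lower, with medians of 0.28 in the relapsed and 0.58 in the primary library. Nhlh2, the paralogue of Nhlh1, had 333 CPM in relapsed members (Poisson 95% interval 242 to 447) and 359 CPM in primary members (313 to 411), against 124 CPM (111 to 139) and 94.6 CPM (83.2 to 107) in precursor cells. Neurod1, a granule neuron differentiation factor, had 197 CPM (129 to 289) in relapsed members and 329 CPM (284 to 379) in primary members, against 89.3 and 86.6 CPM in precursor cells. Both genes lay above the precursor interval in both libraries. Insm1, a zinc finger factor of newly born neurons, was higher by log2 0.69 and 0.80, short of 2-fold. Hes6, a co-factor that favours neurogenesis, had ratios of -0.82 in the relapsed and -0.40 in the primary library. Atoh1 was used to choose the comparator, so its lower level in members is no result.

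Of 13 measured factors of granule cell identity, 0 passed 2-fold in either direction, 10 were above 0 in both libraries and 1 below, and the medians were 0.40 and 0.53, against 0.07 and 0.04 over all genes on the same floor. Zic1, a zinc finger factor of the cerebellar lineage, had 561 CPM in relapsed and 748 CPM in primary members, against 355 and 436 CPM in precursor cells. Pax6, a homeodomain factor of granule cells, had 197 and 279 CPM in members, against 126 and 141 CPM in precursor cells. The nuclear factor I gene Nfib was higher by log2 0.62 and 0.53.

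Of 24 genes of microtubules and growth cones, 5 were at least 2-fold higher in members, 0 were lower, and 20 lay above 0 in both libraries, with medians of 0.65 and 0.95. Tubb3, the neuron-specific beta tubulin, had 1576 CPM in relapsed members (1369 to 1805) and 2187 CPM in primary members (2069 to 2310), against 381 CPM (357 to 405) and 478 CPM (452 to 505) in precursor cells, log2 ratios of 2.05 and 2.19. At an equal depth of 3000 UMIs, Tubb3 was detected in 21 of 23 relapsed members (91.3%) and 96 of 102 primary members (94.1%), against 57.3% and 59.8% of precursor cells and 12.5% and 31.7% of microglia and macrophage cells. Unthinned shares were 100% and 93.7% of members. Stmn2, a microtubule-destabilising protein of growing axons, had 1023 and 1499 CPM in members, against 305 and 427 CPM in precursor cells. The neurofilament-family gene Ina was higher by 1.12 and 1.30 and the tubulin gene Tubb2a by 1.39 and 1.63. Dcx, whose product doublecortin marks migrating neurons, was higher by 0.31 in the relapsed library and by 1.32 in the primary library.

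**Figure D2:**
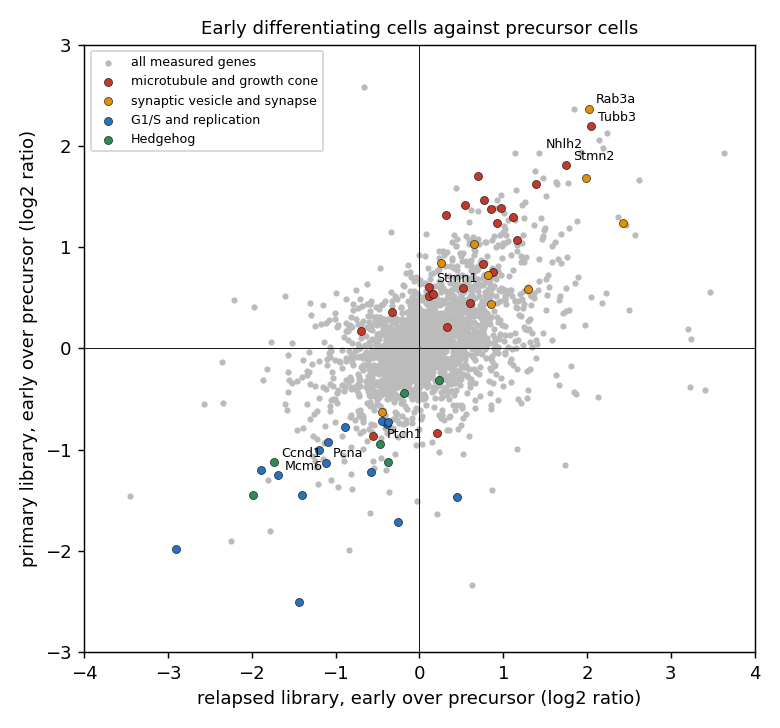
Log2 ratio of each gene in early differentiating over Atoh1 precursor cells, relapsed library on the horizontal and primary library on the vertical axis, for 2313 genes with at least 10 observed or expected UMIs in members, rule genes left out; 1 gene lies outside the axes. Microtubule genes lie mostly at the upper right, Tubb3 at 2.05 and 2.19, and replication and G1/S genes mostly in the lower left, Pcna at -1.12 and -1.13.

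Among genes outside the rule, Chgb, a granin of dense-core vesicles, was higher by 2.24 and 2.13, the amyloid precursor-like gene Aplp1 by 2.14 and 2.06, and Mllt11, a small protein of neurons, by 2.19 and 1.98. Of 9 measured synaptic and vesicle genes, 3 were at least 2-fold higher and 0 lower, with medians of 0.86 and 0.84. They included Rab3a, a small GTPase of synaptic vesicles, with ratios of 2.02 and 2.37, and Slc17a6, a vesicular glutamate transporter, with 2.42 and 1.24. Chrna3, a nicotinic acetylcholine receptor subunit, had ratios of 1.85 and 2.37. Levels were low: Rab3a had 159 CPM (21 UMIs in 12 cells) in relapsed members and 235 CPM in primary members, against 39.3 and 45.6 CPM in precursor cells. Mt3, a metallothionein of astrocytes, also passed, but 273 of its 275 relapsed member UMIs came from the cell with all 8 astrocyte markers.

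Neuronal RNA-binding proteins were higher in members for 3 of 13 measured genes and lower for 0, with medians of 0.55 and 0.69. Elavl4 was higher by 1.63 and 1.64, Elavl3 by 1.26 and 1.44, both Hu proteins that stabilise neuronal mRNA, and the splicing factor Rbfox1 by 1.47 and 1.69 on 10 relapsed UMIs. Among adhesion genes, 1 of 5 passed, the immunoglobulin-family gene Igsf8, with 318 CPM in relapsed and 433 CPM in primary members, against 137 and 162 CPM in precursor cells. Igfbpl1, an IGF-binding-protein-like gene, had 1515 and 1943 CPM in members, against 496 and 940 CPM in precursor cells.

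Genes of DNA replication and the G1/S step were lower in members for 7 of 15 measured genes and higher for 0, and 14 of 15 lay below 0 in both libraries, with medians of -1.09 and -1.20. None of these genes was in the rule, but the rule limits mitotic markers in both groups alike. Pcna, the replication clamp, had 83.3 CPM (41.6 to 149) in relapsed members and 109 CPM (84.0 to 139) in primary members, against 181 and 239 CPM in precursor cells, ratios of -1.12 and -1.13. The helicase subunit gene Mcm6 had ratios of -1.69 and -1.25. Rpa2, a single-strand binding subunit, had 2 UMIs in all relapsed members (15.1 CPM, 1.83 to 54.7) and 34.1 CPM in primary members, against 114 and 134 CPM in precursor cells. Hmgb2, a chromatin protein of dividing cells, had ratios of -1.27 and -1.06, and Smc2, a condensin subunit, -1.15 and -1.10. Detected at 3000 UMIs, Pcna was found in 21.7% of relapsed and 23.5% of primary members, against 33.0% and 45.3% of precursor cells and 12.5% and 21.1% of microglia and macrophage cells; unthinned, it was found in 30.4% and 32.5% of members.

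Hedgehog pathway genes were lower for 2 of 6 measured and higher for 0, with medians of -0.43 in the relapsed and -1.03 in the primary library. Ccnd1, the cyclin D1 target, had 129 CPM (75.0 to 206) in relapsed members and 186 CPM (152 to 224) in primary members, against 430 CPM (405 to 456) and 404 CPM (380 to 430) in precursor cells. The other was Gas1, a co-receptor for the ligand, which had 30.3 and 15.3 CPM in members, against 120 and 41.8 CPM in precursor cells. Ptch1, the gene deficient in these mice and itself a pathway target, had 121 CPM in relapsed and 85.2 CPM in primary members, against 169 and 164 CPM in precursor cells, ratios of -0.48 and -0.94 that are short of 2-fold. Its mRNA was detected in both tumours, and a count per gene does not show which part of the gene is deleted. Mycn had ratios of 0.23 in the relapsed and -0.31 in the primary library, with opposite signs. The interval of relapsed members (268 to 482 CPM) contained the precursor level of 310 CPM. Gli1 had 1 UMI in relapsed and 6 UMIs in primary members, too few for a ratio. Ccnd2, the other D-type cyclin of granule precursors, had 1750 and 1593 CPM in members, against 1395 and 1576 CPM in precursor cells.

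Cytosolic ribosomal protein genes differed by a small amount in the same direction: 0 of 81 passed 2-fold, and 80 of 81 were lower in members in both libraries, with medians of -0.23 and -0.26. Without glial-marked members, 76 of 81 were lower in both, and the medians were -0.12 and -0.26. Oxidative phosphorylation genes had medians of 0.08 and 0.02 over 73 genes, with 0 past 2-fold. Leaving out the glial-marked members gave 242 of 8182 genes past 2-fold (2.96%), 143 higher (1.75%) and 99 lower (1.21%). Some precursor cells also had astrocyte markers: 35 of 445 relapsed (7.87%) and 39 of 520 primary (7.50%) had at least 3. The source of this RNA was not tested. The macrophage gene Lyz2 stood among the lower genes, with 0 and 25.5 CPM in members against 78.2 and 88.9 CPM in precursor cells, and its part in the comparison was not tested.

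**Figure D3:**
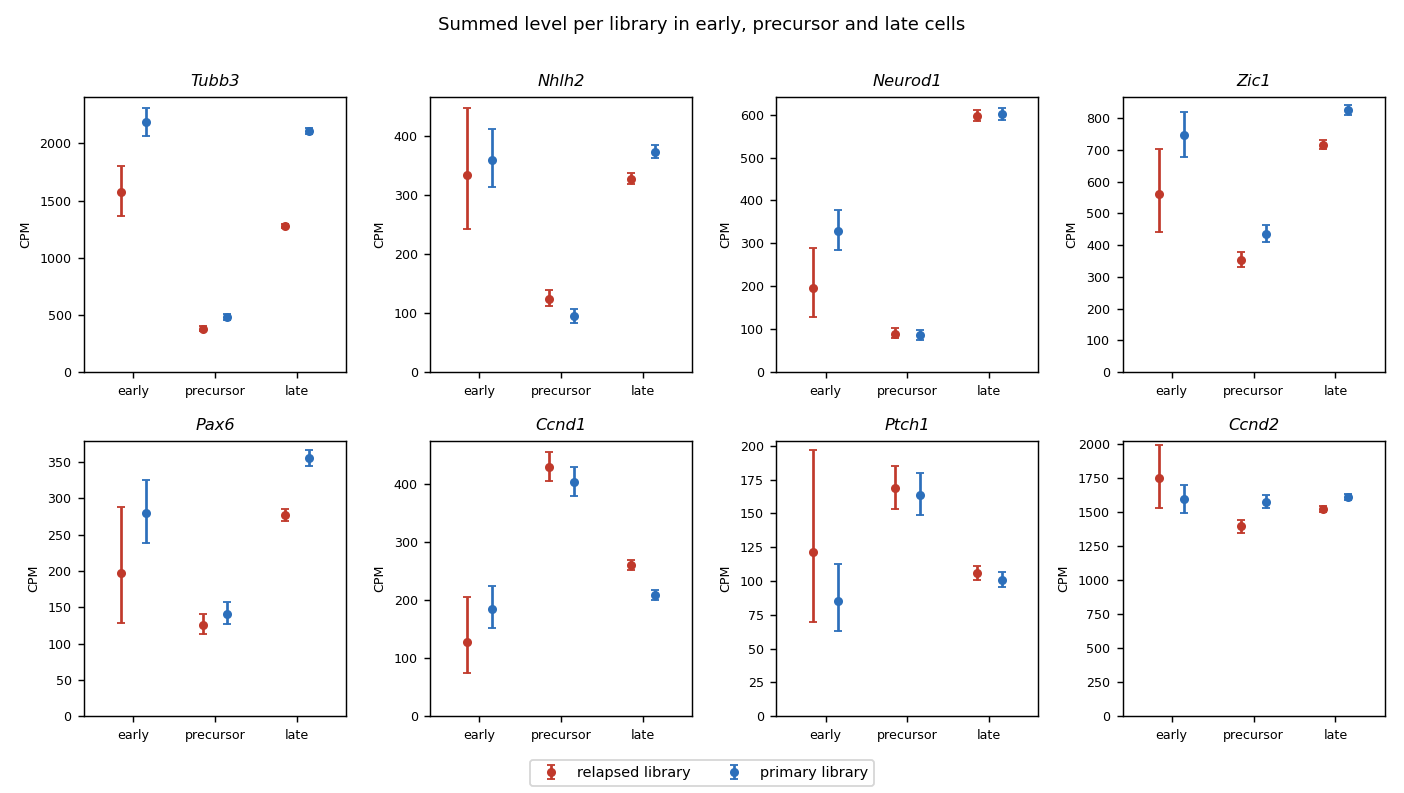
Summed level of 8 genes, in CPM, in early differentiating, precursor and late cells of the relapsed and the primary library; bars are exact Poisson 95% intervals for counting error. Tubb3 and Nhlh2 are at 1576 and 333 CPM in relapsed members and at 2187 and 359 CPM in primary members, near late cells, while Neurod1 (197 and 329 CPM) lies below late cells (597 and 601 CPM).

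Against late differentiating cells, which had at least 3 of the 7 late markers (2154 relapsed and 2286 primary cells), members differed in few genes. Of 11403 genes with at least 50 summed UMIs, 112 passed 2-fold in both libraries (0.982%), 72 higher (0.631%) and 40 lower (0.351%) in members, a split that became 87 higher and 76 lower with the mean of per-cell CPM. Without glial-marked members, 99 of 11390 passed (0.869%), 56 higher (0.492%) and 43 lower (0.378%). No granule-lineage marker was required of late cells, so they can include other cell types. Of 2154 relapsed late cells, 68 (3.16%) had at least 3 of 8 pituitary hormone markers, against 0 of 23 relapsed members. These markers made up to 70.0% of a late cell's UMIs. Summed over relapsed late cells, Prl was at 9205 CPM and Gh at 4546 CPM. At least 3 of 9 microglia and macrophage markers were in 1 relapsed and 40 primary late cells. The part of such cells in the comparison was not tested. Of 2317 genes with at least 10 observed or expected UMIs, 10 passed (0.432%), 2 higher (0.0863%) and 8 lower (0.345%). The lower genes include Rbfox3, Gng3, Snap25 and Grin2b, which the rule used. Rpa2, described above, was another, and Pcp4, a calmodulin regulator, had 1 UMI in relapsed and 3 UMIs in primary members. Pcsk1n, a prohormone convertase inhibitor of secretory granules, had 68.2 CPM in relapsed and 25.5 CPM in primary members, against 205 and 98.3 CPM in late cells. Ppp1r14c, a phosphatase inhibitor, had 37.9 and 109 CPM in members, against 126 and 237 CPM in late cells. The higher genes were Mt3, from the astrocyte-marked cell, and Mroh2a, with 174 and 620 CPM in members against 38.5 and 309 CPM in late cells.

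Neurod1 was lower in members than in late cells, with ratios of -1.60 in the relapsed and -0.87 in the primary library. Tubb3 lay near late cells in both libraries (0.30 and 0.05), as did Nhlh2 (0.03 and -0.05) and Stmn2 (-0.21 and -0.17). The microtubule list had medians of -0.27 and -0.17 over 26 genes, 0 of them past 2-fold, and 19 lay below 0 in both libraries. Of 75 genes that were at least 2-fold higher in late than in precursor cells in both libraries, members lay between the groups for 54 in the relapsed and 69 in the primary library. For 17 and 6 genes members were at or past the late level. On a scale of 0 at the precursor level and 1 at the late level, the median position was 0.75 in relapsed and 0.79 in primary members. Without glial-marked members, 51 and 66 genes lay between. Of 4 genes at least 2-fold lower in late than in precursor cells, members were at or past the late level for 4 in the relapsed and 3 in the primary library, with median positions of 1.73 and 1.20.

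Levels of other genes were also set out by detection of the defining genes. The grouping uses the same UMIs that chose the members, so it is a description only. Cells with both genes were set beside cells of the same late and cycling limits with only Nhlh1 (146 relapsed, 265 primary), only Cntn2 (41 and 204) or neither (711 and 1269). No granule-lineage marker was required, so cells with neither can include glia, microglia and other cell types. The part of such cells in the levels below was not tested. Tubb3 was 1576 CPM with both, 456 CPM with Nhlh1 only, 567 CPM with Cntn2 only and 271 CPM with neither in the relapsed library. In the primary library these levels were 2187, 840, 950 and 428 CPM. Nhlh2 had the same order of both above either and either above neither, with 333, 144, 168 and 88.5 CPM in the relapsed and 359, 185, 172 and 84.7 CPM in the primary library. Neurod1 departed from it in the relapsed library, where cells with Cntn2 only had 297 CPM (234 to 372) and members 197 CPM (129 to 289), intervals that overlap. Ccnd1 was 129 and 186 CPM with both, and between 297 and 429 CPM in the other groups of both libraries.

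**Figure D4:**
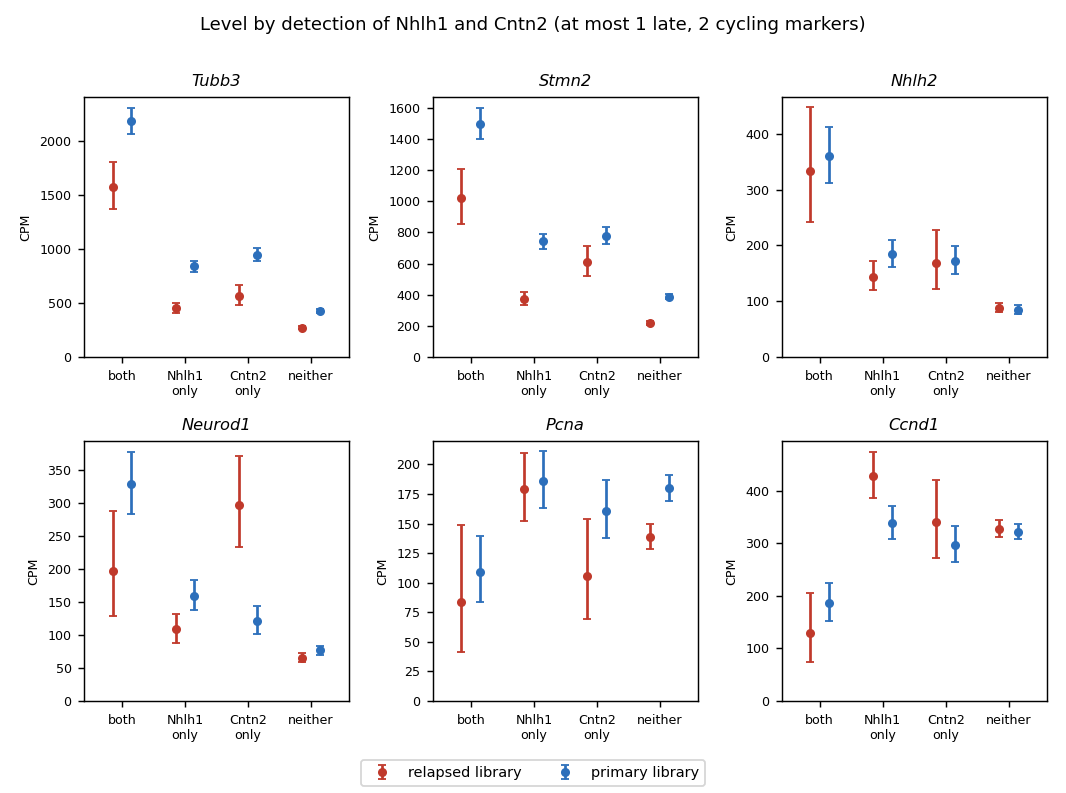
Summed level of 6 genes, in CPM, by detection of Nhlh1 and Cntn2 in cells within the same late and cycling marker limits; bars are exact Poisson 95% intervals for counting error. Tubb3 is 1576 CPM in relapsed and 2187 CPM in primary cells with both genes, against 271 and 428 CPM with neither.

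Members also differed among themselves. In the primary library, the 81 members with 3 or more summed UMIs of Cntn2 and Nhlh1 had 2687 CPM of Tubb3 (2520 to 2862) and 72.2 CPM of Ccnd1 (47.1 to 106), against 1393 CPM (1244 to 1556) and 366 CPM (291 to 454) in the 45 with the minimum of 2 UMIs. In the relapsed library, the 10 members with 3 or more had 2012 CPM of Tubb3 (1670 to 2402) and 33.0 CPM of Ccnd1 (3.99 to 119), against 1205 CPM (964 to 1488) and 210 CPM (118 to 347) in the 13 with 2 UMIs. On counting error alone, the Tubb3 intervals do not overlap in either library, and the Ccnd1 intervals overlap in the relapsed library. This split uses the genes that chose the members, and the intervals leave out the spread between cells, so it is a description only. Primary members with an Atoh1 UMI had less Neurod1 and Stmn2, 160 and 992 CPM over 39 cells, than those without, 434 and 1815 CPM over 87 cells. In relapsed members the same levels were 171 and 1005 CPM with an Atoh1 UMI (16 cells) and 247 and 1057 CPM without (7 cells), with overlapping intervals. Cells with 2 late markers, just outside the rule, had Neurod1 at 443 CPM in the relapsed and 579 CPM in the primary library, above members of both.

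Relapsed members were then set against primary members. Of 2201 genes with at least 50 UMIs summed over the members of both libraries, 247 were at least 2-fold different (11.2%), 62 higher (2.82%) and 185 lower (8.41%) in relapsed members. With at least 10 observed or expected UMIs in both libraries, the same counts stood against 2148 genes (11.5%, 2.89% and 8.61%). The median of all genes was -0.13, and scaling by the median ratio turned the split to 88 higher and 146 lower. Of the 15 genes with the highest ratios, 8 had over 50% of their relapsed UMIs in 1 cell. Mt2, Mt1, Mt3, Atp1b2 and Slc1a3, genes of astrocytes, had log2 ratios between 2.58 and 8.12 with the astrocyte-marked cell. Without glial-marked cells, Mt2 and Atp1b2 had 0 UMIs in relapsed members, Mt1 and Mt3 had 2 UMIs each and Slc1a3 had a ratio of -1.44. Apoe, a lipid carrier of glia, had a ratio of 1.92 with those cells and 1 UMI in relapsed members without them. Without glial-marked members, 228 of 2075 genes passed (11%), 53 higher (2.55%) and 175 lower (8.43%).

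Cirbp, Mtch1, Pdgfra, Fam210b and Jund, spread over many relapsed members, were also higher in the precursor and late cells of that library. Cirbp, a cold-inducible RNA-binding protein, had 917 CPM (761 to 1095) in relapsed members, with a UMI in 23 of 23, and 264 CPM (224 to 309) in primary members, a ratio of 1.80 beside 1.93 in precursor and 1.70 in late cells. Mtch1, a mitochondrial outer membrane protein, had ratios of 2.19 in members, 2.44 in precursor and 2.14 in late cells. Pdgfra, the PDGF receptor alpha gene that is better known from oligodendrocyte precursors, had 182 CPM in 15 of 23 relapsed members and 49.4 CPM in primary members, ratios of 1.88, 1.73 and 1.22. Of the 6 other oligodendrocyte precursor markers, Cspg4, Olig2, Sox10 and Gpr17 were at 0 in relapsed members, Olig1 had 5 UMIs, all in the glial-marked cell, and Lhfpl3 had 4 UMIs in 3 cells. The list of 7 summed to 250 CPM in relapsed and 88.6 CPM in primary members. Fam210b had ratios of 1.79, 1.11 and 1.00, and the AP-1 gene Jund 1.39, 1.49 and 1.30.

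Several of the lowest ratios also ran through the whole library. Xist, the RNA of the inactive X chromosome, had 0 UMIs in relapsed members and 1605 CPM in primary members, a bound of -6.14 with the 0 set to 3 UMIs, while Y-linked Ddx3y had 68.2 CPM in relapsed and 0 CPM in primary members. Sex of the animals and relapse cannot be told apart. Ren1, the renin gene, had 0 UMIs in relapsed members and 802 CPM in primary members, in 40 of 126 cells. Its level was lower in other primary cells, with 249 CPM in precursor and 215 CPM in late cells. The processed pseudogene Gm10036, whose reads may be shared with its parent gene, had 7 UMIs in relapsed members and 1145 CPM in primary members, a ratio of -4.43 beside -4.57 in precursor and -4.51 in late cells. The hormone genes Gh and Prl had 98.5 and 75.7 CPM in relapsed members and 0 CPM in primary members, whereas Cga, Tshb, Lhb, Fshb and Pou1f1 were at 0 in relapsed members; the part of free RNA was not tested.

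Other ratios were larger in members than in precursor and late cells, on few UMIs. Stmn4, a stathmin of growing neurites, had 7 UMIs in relapsed members (an interval of 21.3 to 109 CPM) and 349 CPM (303 to 400) in primary members, a ratio of -2.72 beside -0.97 in precursor and -1.76 in late cells. Hspa5, the chaperone BiP of the endoplasmic reticulum, had 68.2 CPM (31.2 to 129) and 361 CPM (314 to 413), a ratio of -2.41 beside -1.13 and -1.08. Kdm6b, a histone H3K27 demethylase, had 15.1 CPM (2 UMIs, 1.83 to 54.7) in relapsed and 121 CPM (94.5 to 153) in primary members. Bcl11a, a zinc finger repressor, had 22.7 CPM (3 UMIs, 4.69 to 66.4) and 106 CPM (81.0 to 135). Tex14, a gene of germ cell bridges, had 7.57 CPM (1 UMI, 0.192 to 42.2) and 184 CPM (151 to 222), in 65 of 126 primary members. Whether these differences are particular to members was not tested. Gap43, a rule gene, is given as a description only, with 98.5 CPM in relapsed and 445 CPM in primary members.

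By list, 5 of 25 microtubule and growth cone genes were at least 2-fold lower in relapsed members and 1 was higher, with a median of -0.41, and -0.35 without glial-marked cells. For this and the lists below, the shares over all 2201 genes were 8.41% lower and 2.82% higher, with a median of -0.13. The lower genes were Stmn4, Dcx, Dpysl4, Fez1 and Map1b. Dcx had 83.3 CPM in relapsed and 223 CPM in primary members, a ratio of -1.42 beside -0.42 in precursor and -0.18 in late cells. Map1b, a microtubule-associated protein of axons, had 417 and 964 CPM, a ratio of -1.21 beside -0.34 and -0.39. Neuronal RNA-binding genes had a median of -0.50, with 1 of 13 higher and 0 lower. The higher gene was Qk, with 16 of its 32 relapsed UMIs in 1 cell. Without glial-marked members, 0 of 12 passed in either direction, with a median of -0.46. Long noncoding RNAs were lower for 3 of 7, namely Xist, Miat and the neuronal miR-124 host gene Mir124a-1hg, with a median of -0.82. Glycolysis genes were higher for 2 of 10, Gapdh and Eno1, with a median of 0.22. Gapdh had 2734 and 1312 CPM, a ratio of 1.06 beside 1.03 in precursor and 1.11 in late cells. Among proneural factors, Id2, an inhibitor of helix-loop-helix factors, had 500 and 179 CPM, a ratio of 1.48, and Tcf12 a ratio of -1.46. Ribosomal protein genes had 0 of 81 past 2-fold and a median of 0.02. Without glial-marked members, 1 of 81 was higher, the median was 0.15 and 61 lay above 0.

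**Figure D5:**
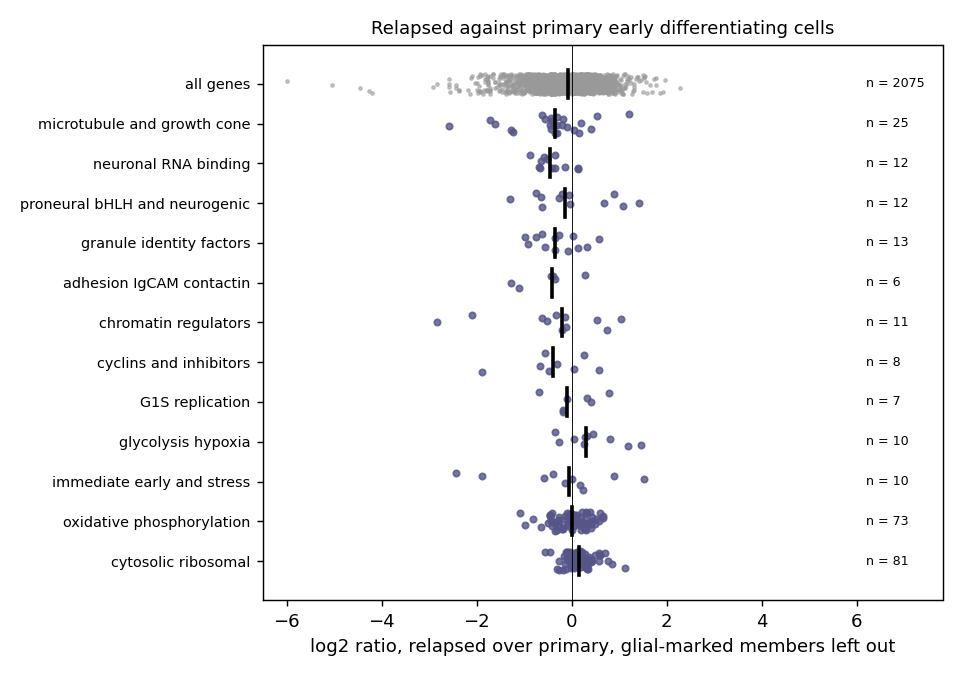
Log2 ratio of relapsed over primary early differentiating cells by gene list, glial-marked members left out; points are genes, bars are medians, and n is the number measured. The microtubule list has a median of -0.35 over 25 genes and glycolysis 0.30 over 10, against -0.08 over all 2075 genes.

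Across the libraries, 69403567 and 56332247 UMIs were deposited for 7852 relapsed and 9164 primary barcodes. Members held 132020 UMIs in the relapsed and 587093 UMIs in the primary library, with medians of 4791 and 4211 UMIs per cell, below the 7245.5 and 5448.5 UMIs of all other cells. Between the libraries, 93 barcodes were shared, none of them a member's. Against all other passing cells of their library, 391 of 13889 genes (2.82%) passed 2-fold in both libraries for members, 203 higher (1.46%) and 188 lower (1.35%). Without glial-marked members, 349 of 13882 passed (2.51%), 166 higher (1.2%) and 183 lower (1.32%). Depth, which decides how many UMIs of a marker a cell shows, differed between the libraries, and its part in the relapsed and primary shares of members was not tested beyond the thinning.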

How the data were processed

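Papain-dissociated cells were run on a Chromium instrument, per the labels' protocols. The authors deposited, for each tumour, a matrix of raw counts of UMIs by gene and barcode. The tools listed in the submitters' processing notes are STAR, Cell Ranger and Seurat, and the build is mm10; their versions and roles are not stated there. The FPKM and read-count tables of the sorted astrocytes were not used. Cells were filtered and classed on the deposited counts (27998 gene rows, 121 with a repeated symbol left out). UMIs were summed per class and library, divided by the summed UMIs of those cells as CPM, and compared as log2 ratios, with 0 set to 3 UMIs where the other group had more. No test was possible with 1 library per group. The code was tested on simulated counts. Intervals are exact Poisson or Clopper-Pearson (scipy 1.17.1, Python 3.11.15). Scrublet in scanpy 1.11.5 called 0 doublets at its automatic threshold, so none were removed, and removing the top 6% of scores was an alternative.

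Members and gene lists (30 lists) were chosen with earlier results of these data known. Named genes were, for each comparison, the 15 highest and 15 lowest ratios among measured genes with at least 50 CPM (for precursor and late cells, by the ratio nearer to 0 among those past 2-fold in both libraries), the 2 largest ratios and 2 highest levels in each list, and a short list of granule lineage and Hedgehog genes. Other genes are named to complete a count of a list, and Gh, Prl and Ddx3y were chosen after their values were seen. Of 837 list genes, 9 matched no symbol. Sequences came from RefSeq (GRCm38.p6) and positions from GENCODE M21.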

Additional observations from a re-analysis of the deposited data

Results flagged for a closer look

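For several named genes with at least 10 observed or expected UMIs, members lay on opposite sides of their comparator in the relapsed and the primary tumour, with log2 ratios of at least 0.2 in size. Each difference rests on 1 library per tumour and was not tested.

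Against precursor cells, Mycn had ratios of 0.23 in the relapsed and -0.31 in the primary library. Hspa5, the chaperone BiP, had -0.47 and 0.80. Bptf, a chromatin remodeller subunit, had -1.97 and 0.41, on 3 relapsed UMIs. Tle1, a co-repressor, had 0.51 and -0.27, and Cdv3 had 0.61 and -0.38. Of genes abundant in glia or macrophages, Mt2 had 3.23 and -0.38, Slc1a3 1.63 and -0.26, Gfap 1.16 and -0.99, Sepp1 0.86 and -1.40, and Qk 1.30 and -0.41.

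Against late cells, Ptch1 had ratios of 0.20 in the relapsed and -0.24 in the primary library, and Cdkn1b, a cell cycle inhibitor, -0.30 and 0.27. Hspa5 had -0.53 and 0.80, Cnpy2 -1.10 and 0.22, Tle1 0.46 and -0.23, and Cdv3 0.79 and -0.20. Pdgfra had 0.30 and -0.36, Pole4 0.26 and -0.54, and Nudcd2 0.54 and -0.57. Of genes abundant in glia or macrophages, Mt2 had 5.49 and -0.28, Apoe 2.62 and -0.86, Gfap 1.66 and -0.48, Sepp1 2.91 and -0.66, and Qk 1.88 and -0.49. Of the relapsed member UMIs of Mt2, Apoe, Gfap and Slc1a3, over 50% came from the cell with all 8 astrocyte markers.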

How the results depend on the processing

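Requiring 2 UMIs of each gene left shares of 0.0128% (1 relapsed cell) and 0.220%, with 68 genes past 2-fold between tumours and 69 against late cells. Allowing no late or cycling marker gave 0.0255% and 0.0990%, 84 genes between tumours and 349 against late cells. Thinned to 3000 UMIs, shares were 0.459% and 1.84%. A floor of 200 UMIs left 37 genes between tumours, 94 against precursor and 50 against late cells. A floor of 1 UMI gave 2748, 442 and 174. With at least 10 UMIs observed or expected, 75 passed against precursor and 10 against late cells. A comparator without Cntn2 and Nhlh1, with or without Atoh1, gave 507. The last 2 alternatives, and leaving out glial-marked members, were chosen after seeing the data. Gli1 over precursor cells, on 1 UMI, changed sign in the relapsed library, to 1.22 without late or cycling markers and 1.10 when thinned; the cause was not tested. Over 530 gene values under all alternatives, 449 moved by less than their counting error and 480 kept their sign. Of the shares and gene counts under these alternatives, 27 stayed close to the main value and 19 moved. No paired analysis was possible because each group was 1 library and no test was made. With 132020 relapsed member UMIs, genes under about 50 CPM rest on few UMIs, and the depth limits them.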
